A study of Mus musculus with 3 samples.

Results

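The genes described here are the costimulatory and checkpoint ligands of antigen-presenting cells: Cd80, Cd86, Icosl and Tnfsf9, Cd274 and Pdcd1lg2, and Cd40 and Cd83. These 8 genes were taken by symbol from the 34289 features of the deposited lists, and each matched 1 feature. They were followed in Langerhans cells (LCs), dendritic cells that live in the epidermis and present antigen, which were gated as droplets with at least 2 UMIs of Epcam in which Cd74, H2-Aa, H2-Ab1 and H2-Eb1, the genes of MHC class II and its invariant chain, held at least 2% of all UMIs. A UMI, or unique molecular identifier, marks 1 captured RNA molecule. LCs were then split by Ccr7, the chemokine receptor that guides dendritic cells to lymph nodes, at 0 or at least 1 UMI.

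The cells came from the ear epidermis of male Cd1 mice, enriched for LCs magnetically after trypsin separation and removal of dead cells. The untreated group had received only Nair, a depilatory cream. The croton oil group was given a mixture of acetone, croton oil (an irritant plant oil) and olive oil, and the microneedle group received multiple punches with a microneedle device. Cells of the treated groups were taken 48 hours after the start of treatment. The number and age of the mice behind each library are not given in the sources used here. Each group was 1 library, so no spread between mice could be measured, library and treatment cannot be told apart, and every interval below covers counting error within a library only.

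A T cell that meets its antigen needs a further signal from the presenting cell. Cd80 and Cd86 give it through CD28, and they also bind the inhibitory receptor CTLA-4; Icosl acts through ICOS and Tnfsf9 (4-1BB ligand) through 4-1BB. Cd274 (PD-L1) and Pdcd1lg2 (PD-L2) bind PD-1 and restrain the T cell. Cd40 is the receptor through which T cell CD40 ligand activates the presenting cell, and Cd83 is a maturation marker that keeps MHC class II and Cd86 at the surface. LCs that mature and leave the epidermis are known to raise Ccr7 and several of these molecules.

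The libraries held 9876 untreated, 8241 croton oil and 6945 microneedle cells, with 117178809 to 127666928 UMIs each. The gate gave 9364 untreated, 6229 croton oil and 5513 microneedle LCs, with a median of 11647, 12679 and 17471 UMIs per cell. Langerin (Cd207), the defining marker of LCs, stood at 574, 325 and 464 CPM (UMIs of a gene per 1000000 UMIs) in them, and 11 of 15 LC markers reached 20 CPM in each library. Of the other cell types, the macrophage markers summed to 821, 2362 and 1075 CPM in the untreated, croton oil and microneedle LCs, the keratinocyte markers to 106, 171 and 64.9 CPM, and the T cell markers to 20.6, 52.6 and 34.2 CPM. The neutrophil list summed to 2834, 2973 and 4217 CPM, with its defining markers S100a8 at 0, 16.1 and 6.84 CPM and Csf3r at 0.151, 0.448 and 0.609 CPM, and the melanocyte list to 12.1, 25.9 and 25.9 CPM. Their part in the differences between libraries was not tested. Between 13 and 32 cell barcodes were shared by any pair of libraries. Near the gate's edge, 53, 111 and 46 LCs had 2 to 2.5% class II UMIs, and 62, 119 and 48 droplets with Epcam lay just outside at 1.5 to 2%.

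The gate cut through the Ccr7-positive cells. In the untreated library all 18 clean Epcam-positive droplets with Ccr7 lay inside it. In the croton oil library only 360 of 773 did (46.6%, exact binomial 95% interval 43.0 to 50.2), and in the microneedle library 81 of 196 (41.3%, 34.4 to 48.6). The remaining 413 and 115 droplets, with a median class II share of 0.163% and 0.0946%, are given as a class of their own, the class II-low Ccr7-positive droplets. By fold over the other cells, Itgb8, Mir155hg and Stxbp6 led them after croton oil and Fscn1, Ccr7 and Cacnb3 after microneedles; beside Ccr7, which chose them, Fscn1, Ccl22 and Itga4 were among the leading 10 genes of both. They had Epcam at 606 and 635 CPM, and had Cd207 at 95.0 and 172 CPM. The 9 markers of conventional dendritic cells summed to 904 and 953 CPM, against 312 and 303 CPM in the Ccr7-negative LCs. In each library 3 of the 9 reached 20 CPM and 2 were at 0, against 5 and 0 in the Ccr7-negative LCs. The list was thus not higher throughout. Among them Flt3 stood at 545 and 581 CPM, Zbtb46 at 240 and 261 CPM, Xcr1 at 0.295 and 1.49 CPM and Clec9a at 0. The macrophage markers summed to 256 and 140 CPM, with Lyz2 at 0, against 2431 and 1080 CPM in the Ccr7-negative LCs. Epcam was asked of the class, and droplets with at least 5 UMIs of macrophage genes, Lyz2 among them, had been left out. The levels of Epcam and Lyz2 are thus partly set by the gate. The class was left without a cell type name.

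The results by cell class turn on Cd274, Pdcd1lg2 and Cd40, and the 250 bases before their starts are shown for that reason, from the GRCm39 genome at the canonical transcript starts of GENCODE M39. Cd274 (ENSMUSG00000016496) lies at chr19:29344529-29365495 and Pdcd1lg2 (ENSMUSG00000016498) at chr19:29388319-29448882, both on the plus strand and 22824 bases apart. Cd40 (ENSMUSG00000017652) lies at chr2:164897544-164914868, also on the plus strand. None of the 3 windows overlaps an annotated exon. Capitals mark the motif matches: the IRF element GAAANNGAAA, read on the reverse strand, in Cd274, and the NF-kB site in the other pair.
Cd274, chr19:29344279-29344528, plus strand: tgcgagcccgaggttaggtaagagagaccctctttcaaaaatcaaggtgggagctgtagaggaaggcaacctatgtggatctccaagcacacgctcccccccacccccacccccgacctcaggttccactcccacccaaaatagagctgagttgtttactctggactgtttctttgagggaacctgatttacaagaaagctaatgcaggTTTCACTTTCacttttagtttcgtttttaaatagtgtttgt
Pdcd1lg2, chr19:29388069-29388318, plus strand: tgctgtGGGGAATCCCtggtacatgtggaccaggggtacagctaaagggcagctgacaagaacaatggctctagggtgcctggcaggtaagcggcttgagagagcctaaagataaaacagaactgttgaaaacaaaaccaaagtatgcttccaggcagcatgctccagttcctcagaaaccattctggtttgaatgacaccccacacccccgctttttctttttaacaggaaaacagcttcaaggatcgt
Cd40, chr2:164897294-164897543, plus strand: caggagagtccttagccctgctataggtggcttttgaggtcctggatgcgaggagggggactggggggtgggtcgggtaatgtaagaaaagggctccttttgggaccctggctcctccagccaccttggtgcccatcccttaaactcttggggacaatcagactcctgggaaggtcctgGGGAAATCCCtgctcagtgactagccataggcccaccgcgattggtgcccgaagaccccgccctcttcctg

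The Cd274 match lay at positions −41 to −32 from the start, the Pdcd1lg2 match at −244 to −235 and the Cd40 match at −71 to −62. The windows of Cd80 (ENSMUSG00000075122, chr16:38275923-38316697, plus strand) and Cd86 (ENSMUSG00000022901, chr16:36424044-36486443, minus strand) overlapped annotated exons and are not printed; that of Cd80 held an AP-1 motif (TGANTCA) and that of Cd86 no motif searched. None was found for Icosl (ENSMUSG00000000732, chr10:77905136-77919747), Tnfsf9 (ENSMUSG00000035678, chr17:57412298-57414769) or Cd83 (ENSMUSG00000015396, chr13:43938251-43956634), all on the plus strand. The GAS element TTCNNNGAA was found in none of the 8. Among 21770 promoter windows of the same length, searched on both strands, 4.23% held the NF-kB site, 3.32% the IRF element, 7.70% the GAS element and 6.17% the AP-1 motif. A match describes letters only, and binding was not measured.

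The CD28 ligands differed by treatment in unlike ways. In LCs, Cd80 stood at 51.4 CPM untreated (95% Poisson interval 50.1 to 52.7), 294 CPM after croton oil (290 to 298) and 263 CPM after microneedles (260 to 266). Both treated libraries were thus more than 5 times the untreated level, with log2 differences of 2.41 and 2.25 (on a scale with 5 CPM added to each level), and differed from each other by 0.16. Cd86, by contrast, was high in every library, at 4519, 3919 and 5643 CPM in the same order. It was 0.21 lower after croton oil and 0.32 higher after microneedles on the log2 scale.

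More cells carried Cd80, and those that did carried more of it. With every cell thinned to 3000 UMIs, 9.73% of untreated LCs had a Cd80 UMI (exact binomial interval 9.13 to 10.3), against 46.8% (45.5 to 48.0) after croton oil and 34.5% (33.3 to 35.8) after microneedles; unthinned, the shares were 23.1, 76.4 and 60.9%. At the same thinning, keratinocytes, taken as cells that should lack the gene, had shares of 3.07, 6.12 and 7.35%, with a median of 31374, 51566 and 33420 UMIs before thinning. LCs with 3 or more Cd80 UMIs made up 0.939, 9.60 and 9.0%. Cd86 was detected in 98.8 to 99.2% of LCs in each library, so its share could not register a difference.

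The other T cell-stimulating ligands were low. Icosl had 196, 92 and 107 UMIs over all untreated, croton oil and microneedle LCs, at 1.65, 1.06 and 1.05 CPM. Tnfsf9 had 490, 683 and 377 UMIs, at 4.11 CPM (3.76 to 4.49), 7.85 CPM (7.27 to 8.46) and 3.70 CPM (3.34 to 4.09). The croton oil LCs thus had the highest Tnfsf9 level, at 2.15% of thinned cells with a UMI against 1.06 and 0.990%. No thinned keratinocyte had a Tnfsf9 UMI, in 68 to 196 cells per library.

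The PD-1 ligands were low in LCs and differed by treatment mainly through Cd274. Cd274 stood at 1.96 CPM untreated (1.72 to 2.23), 16.9 CPM after croton oil (16.1 to 17.8) and 4.10 CPM after microneedles (3.72 to 4.52). These levels depend on the gate. The LCs held 1474 Cd274 UMIs after croton oil and 418 after microneedles. The class II-low Ccr7-positive droplets, which lay outside the gate, held a further 2586 and 387. In the untreated library no such droplets lay outside it. The thinned share of LCs with a Cd274 UMI was 3.15% after croton oil, against 1 of 196 croton oil keratinocytes (0.510%), a share that rests on a single cell. In the untreated library it was 0.507%, against 2 of 163 keratinocytes (1.23%, 0.149 to 4.36), and in the microneedle library 0.788%, against 1 of 68 (1.47%, 0.0372 to 7.92). In these libraries the share over all LCs was not above that of keratinocytes, which is itself loosely bounded. Pdcd1lg2 had 137, 199 and 77 UMIs over all LCs, at 1.15, 2.29 and 0.756 CPM.

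Cd83 was lower in both treated libraries, and Cd40 differed little. Cd83 stood at 1577 CPM untreated (1570 to 1585), 706 CPM after croton oil (701 to 712) and 841 CPM after microneedles (836 to 847). Its log2 differences were −1.15 and −0.90, and the thinned share of positive LCs was 91.7% untreated against 76.1 and 76.0%. Cd40 stood at 91.2, 76.2 and 82.3 CPM, a log2 difference of −0.25 for croton oil and −0.14 for microneedles. Both turned positive, to 0.21 and 0.07, when the class II-low Ccr7-positive droplets were counted as LCs. The share of Cd40-positive LCs, 21.1, 18.5 and 18.9% at 3000 UMIs, was above the 1.02 to 4.91% of keratinocytes.

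A level of 20 CPM in either group was asked of a gene before a difference was counted, so a gene could enter through its higher group alone. It was called when it differed at least 2-fold. With 1 library per group this describes size and is no test. Cd80, Cd86, Cd83 and Cd40 reached that level in LCs. Of these 4, croton oil against untreated called 1 higher (Cd80), where 5.62% of 6836 features were called higher, and 1 lower (Cd83), where 5.62% were called lower. Microneedle against untreated called Cd80 higher, beside 3.87% of 6696 features, and none of the 4 lower, beside 1.69%. Croton oil against microneedle called none of the 4 either way, beside 1.63% of 6631 features higher and 1.07% lower. The median log2 difference of the 4 was −0.23, 0.09 and −0.18 in these comparisons, and that of all features −0.04, 0.02 and −0.06. The first and second comparisons share the untreated library.

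**Figure D1:**
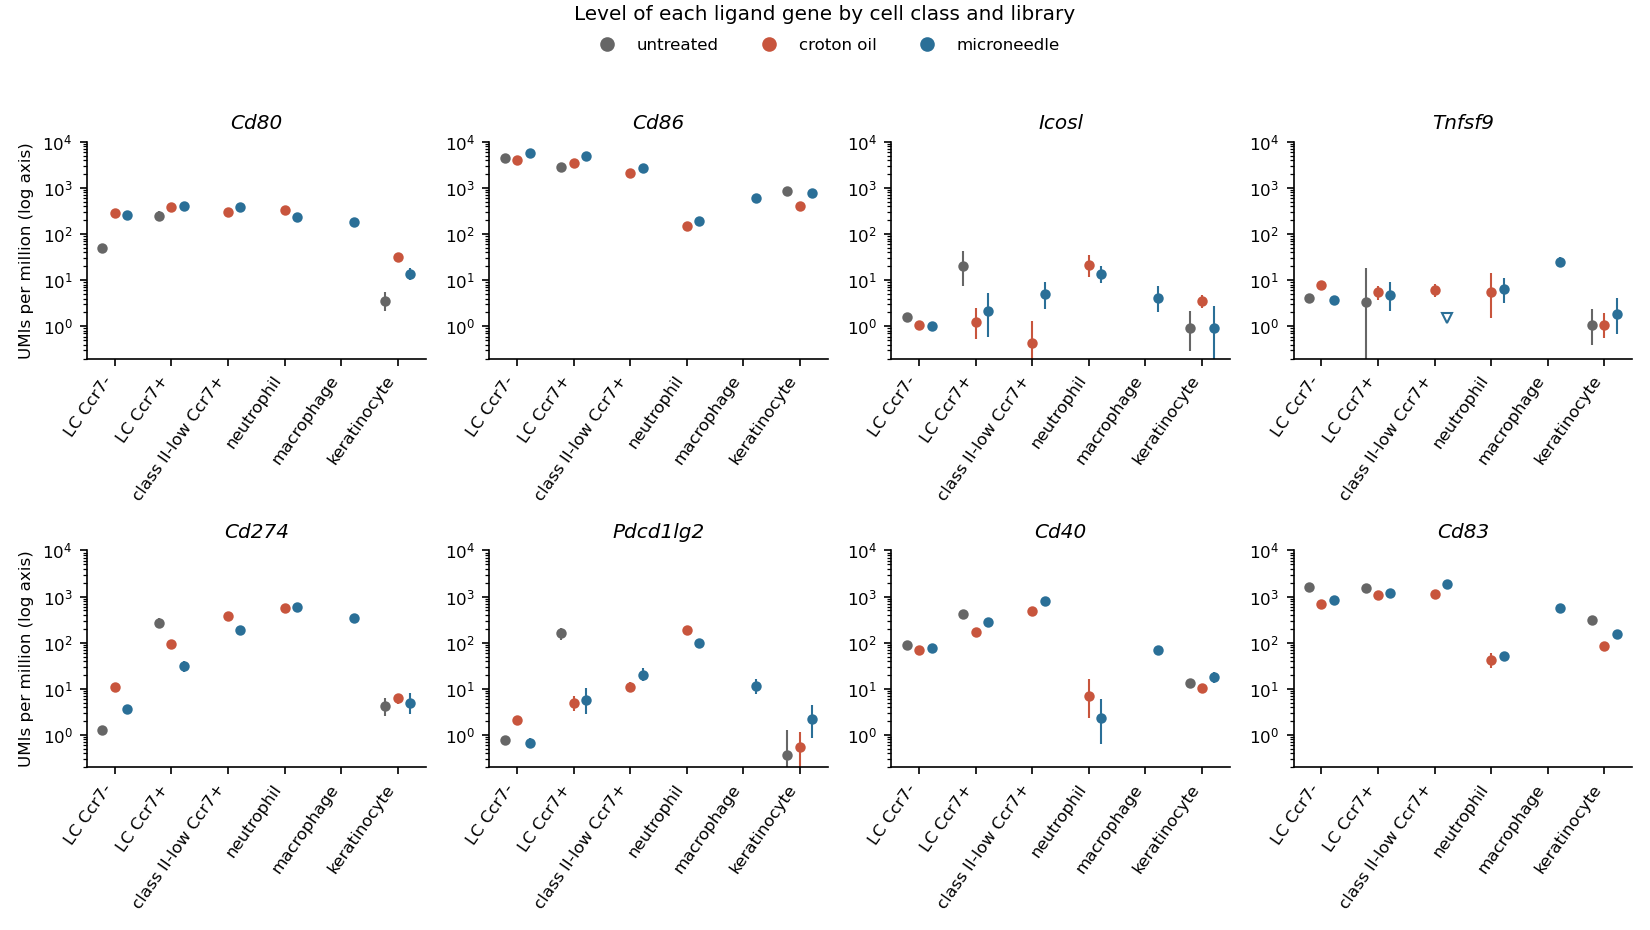
Level of each of the 8 genes in CPM (log axis) by cell class, coloured by library (grey untreated, red croton oil, blue microneedle), with exact Poisson 95% intervals; the open triangle marks a class with 0 UMIs, drawn at the level of 3 counts (1.49 CPM), and only the classes named on the axis are drawn, those under 50 cells left out apart from the 18 untreated Ccr7-positive LCs. Cd80 in Ccr7-negative LCs sits at 50.9 CPM untreated against 287 and 260 CPM in the treated libraries, and Cd274 and Cd40 sit higher in the Ccr7-positive than in the Ccr7-negative LCs.

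The Ccr7 split separated Cd274 and Cd40 from the CD28 ligands. After croton oil, Cd274 stood at 93.9 CPM (86.6 to 102) in the 360 Ccr7-positive LCs and 10.8 CPM in the 5869 Ccr7-negative ones. After microneedles it stood at 30.5 CPM (23.2 to 39.4) in 81 and 3.60 CPM in 5432 cells. In the treated libraries the intervals of the Ccr7-positive and Ccr7-negative LCs did not overlap, and the log2 differences were 2.65 and 2.05. Their size depended on the class II limit: they were 1.80 and 1.59 at 4% or more, and 3.97 and 3.79 with the class II-low Ccr7-positive droplets counted in. The thinned share of Cd274-positive cells was 14.7% against 2.43% after croton oil, and 6.25% (2.06 to 14.0) against 0.707% after microneedles.

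Cd40 followed the same split. It stood at 167 CPM (157 to 177) in Ccr7-positive and 68.9 CPM in Ccr7-negative LCs after croton oil, and at 284 CPM (260 to 309) and 78.4 CPM after microneedles. The log2 differences were 1.22 and 1.79. Positive cells were 32.8% against 17.6% after croton oil, and 31.3% against 18.7% after microneedles. A single microneedle cell held 92 of the 539 Cd40 UMIs of its Ccr7-positive class.

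Cd83 was 0.65 and 0.51 log2 units higher in Ccr7-positive LCs of the croton oil and microneedle libraries, and Cd80 0.39 and 0.64. Cd86 went the other way, at −0.22 in both, with 3410 against 3960 CPM after croton oil and 4870 against 5657 CPM after microneedles. Pdcd1lg2 stood at 4.81 and 5.79 CPM in the Ccr7-positive LCs, from 31 and 11 UMIs. Icosl, with 8 and 4 UMIs there, and Tnfsf9, with 35 and 9, were too sparse to place. Ccr7-positive cells were somewhat deeper, with a median of 15382 against 12571 UMIs after croton oil and 20754 against 17431 after microneedles. The CPM and the thinning take this depth into account for the ligand genes. Ccr7 itself was scored on unthinned counts, so depth also bears on which cells entered each class.

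Of the 5 genes at 20 CPM or more in this split, Cd274 and Cd40 were called higher in the Ccr7-positive LCs of both libraries, and none lower. Cd274 reached 20 CPM only in the Ccr7-positive LCs. The count and the medians thus include a gene admitted by the group where it was high. The Cd40 call after microneedles was lost, at 0.65, when LCs needed 4% class II UMIs. Over all features, 3.25% of 6518 were called higher and 0.675% lower after croton oil, and 2.90% of 6689 and 0.194% after microneedles. The median log2 difference of the 5 genes was 0.65 and 0.64, and that of all features −0.08 and −0.04. Cells of 1 library are not replicates, so no test was made.

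The 18 untreated Ccr7-positive LCs are too few for a comparison. They held 81 of the 234 Cd274 UMIs of all untreated LCs, in 8 cells, with 36 in 1 cell, which gives 273 CPM (216 to 339). Pdcd1lg2 had 47 UMIs in 3 cells, of which 37 lay in 1 cell. Cd40 was seen in 14 of the 18 (123 UMIs, 414 CPM) and Cd80 in 10 (74 UMIs, 249 CPM). Icosl had 6 UMIs in 4 cells. Of the 81 Cd274 UMIs, 79 lay in the 11 cells with at least 2 Ccr7 UMIs.

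**Figure D2:**
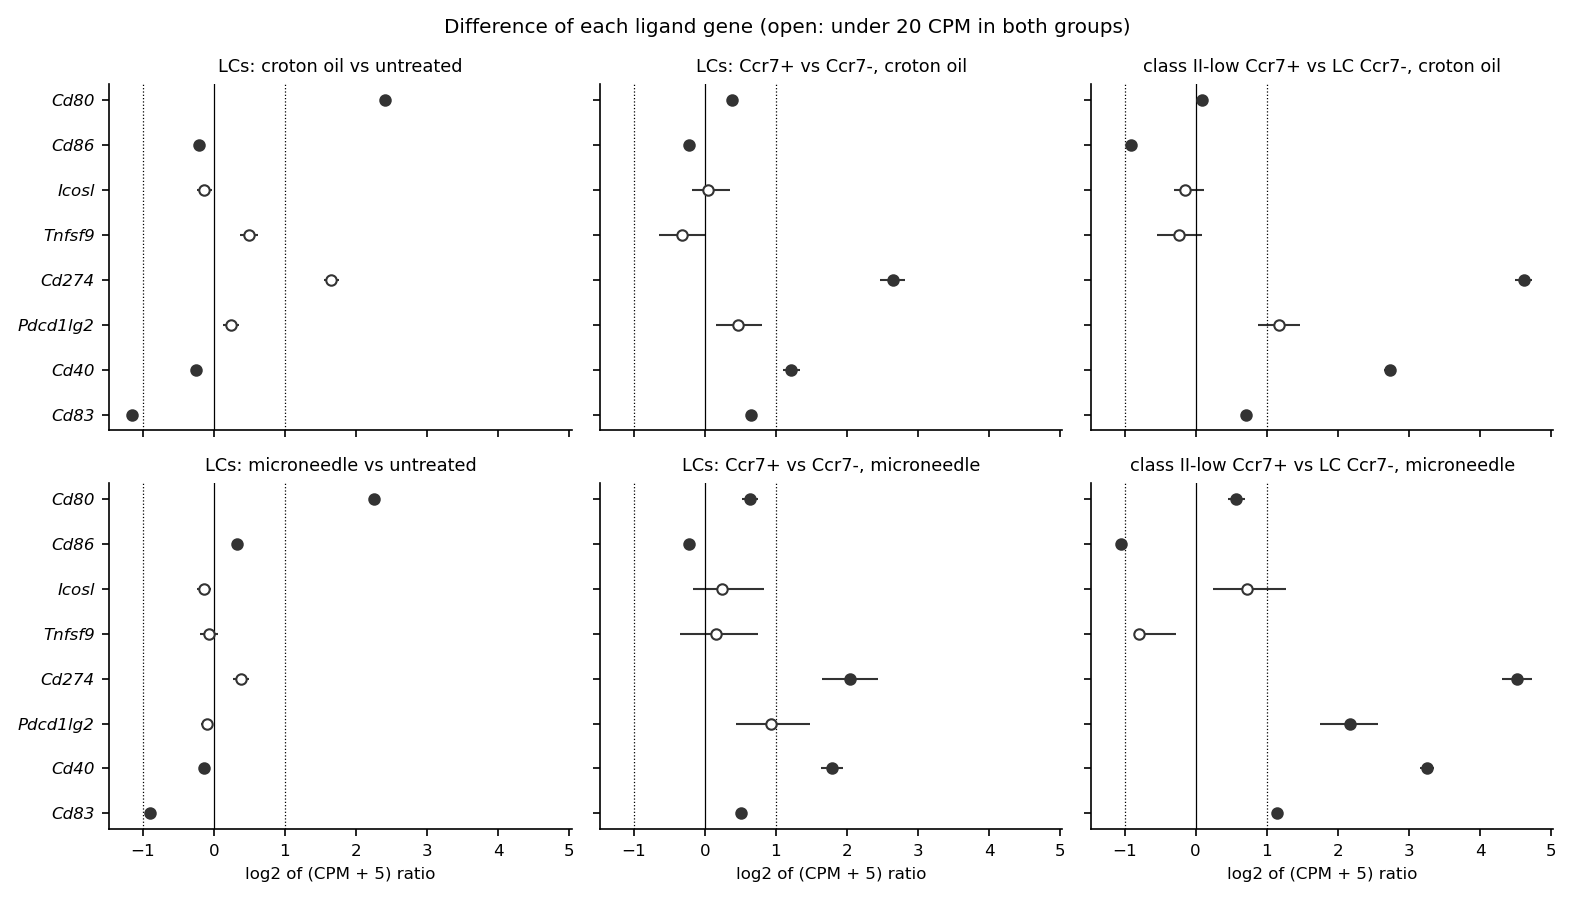
Difference of each gene as log2((CPM + 5)/(CPM + 5)) for croton oil (upper panels) and microneedle (lower panels): treated against untreated LCs, Ccr7-positive against Ccr7-negative LCs, and class II-low Ccr7-positive droplets against Ccr7-negative LCs. Dotted lines mark 2-fold, open points genes under 20 CPM in both groups, and bars counting error only; Cd80 stands out in the treatment panels at 2.41 and 2.25, Cd274 and Cd40 in the others, and the point of Tnfsf9 in the class II-low microneedle panel, from 0 UMIs, depends on the added 5 CPM.

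The class II-low Ccr7-positive droplets held the highest Cd274 and Cd40 levels of the Epcam-positive classes in the treated libraries. Cd274 stood at 382 CPM (367 to 397) after croton oil and 193 CPM (174 to 213) after microneedles, with log2 differences of 4.62 and 4.52 from the Ccr7-negative LCs. Cd40 stood at 489 CPM (472 to 506) and 793 CPM (755 to 833), differences of 2.74 and 3.26. At 3000 UMIs, 42.7 and 22.8% of these droplets had a Cd274 UMI, and 61.7 and 74.6% a Cd40 UMI.

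Cd83 was also higher there, at 1107 and 1854 CPM, 0.70 and 1.15 log2 units above the Ccr7-negative LCs. Pdcd1lg2 reached 10.9 CPM (8.58 to 13.7) after croton oil and 20.4 CPM (14.6 to 27.7) after microneedles, against 2.08 and 0.660 CPM in Ccr7-negative LCs. Cd80 was close to the Ccr7-negative LCs after croton oil, at 307 against 287 CPM, and 0.57 higher after microneedles, at 389 CPM. Cd86 was lower, at 2114 and 2727 CPM, by −0.90 and −1.05. Icosl had 3 and 10 UMIs; Tnfsf9 had 41 UMIs after croton oil and 0 in the 115 microneedle droplets, where 3 counts, taken as the limit that a count of 0 allows, would be 1.49 CPM.

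Against the Ccr7-negative LCs of the croton oil library, 2 of 5 genes at 20 CPM were called higher, Cd274 and Cd40, beside 9.71% of 6787 features, and none lower, beside 13.5%. In the microneedle library 4 of 6 were called higher, Cd274, Cd40, Pdcd1lg2 and Cd83, beside 11.1% of 7020 features, and Cd86 lower, beside 14.8%. Cd274 in both libraries, and Pdcd1lg2 in the microneedle one, reached 20 CPM only in the class II-low droplets. The counts and medians thus include genes admitted by the group where they were high. The medians of the genes compared were 0.70 and 1.66, and those of all features −0.14 and −0.15. Set against each other, the croton oil droplets had more Cd274 (0.97 on the log2 scale) and less Cd40 (−0.69), Cd83 (−0.74), Pdcd1lg2 (−0.67), Cd86 (−0.37) and Cd80 (−0.34) than the microneedle ones. None of these 6 reached 2-fold, beside 1.48% of 6359 features called higher and 2.77% lower.

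Among Ccr7-positive droplets, the level varied with the class II share for some of the genes and not for others. From under 0.5%, through 0.5 to 2% and 2 to 4%, to at least 4% class II UMIs, Cd274 stood at 392, 357, 144 and 48.8 CPM after croton oil (310, 103, 144 and 216 droplets). After microneedles it stood at 222, 71.3, 36.8 and 20.4 CPM (96, 19, 43 and 38 droplets). Cd274 was thus lower in each successive bin of both libraries. Cd40 had the same order, from 542 to 145 CPM after croton oil and from 833 to 120 CPM after microneedles. Without the bin of 19 droplets the order of both genes was the same.

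Cd86 ran the opposite way between the outer bins, from 2030 to 3292 CPM after croton oil and from 2645 to 4902 CPM after microneedles. Cd83 was level after croton oil, at 1032 to 1109 CPM, and lower above 2% class II after microneedles (1886, 1722, 1152 and 1246 CPM). Cd80 showed no order in either library. The class II genes set these bins and are part of each droplet's total.

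Levels also followed the number of Ccr7 UMIs, over Epcam-positive droplets of any class II share from 1 UMI up. This order overlaps with that by class II share, and they were not separated. Of droplets with at least 1 Ccr7 UMI, 46.6% after croton oil and 41.3% after microneedles lay in the class II gate. With at least 2 Ccr7 UMIs it was 36.1 and 23.3%. At 0, 1, 2 to 4, 5 to 9 and at least 10 Ccr7 UMIs, Cd274 stood at 10.8, 41.1, 119, 203 and 323 CPM after croton oil and at 3.60, 18.9, 54.0, 102 and 165 CPM after microneedles. Each step was higher than the last in both libraries. Cd40 stood at 68.9, 110, 241, 272 and 418 CPM after croton oil. After microneedles it did not keep that order, at 78.4, 99.6, 688, 328 and 776 CPM, where the bin at 688 CPM held 14 droplets.

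**Figure D3:**
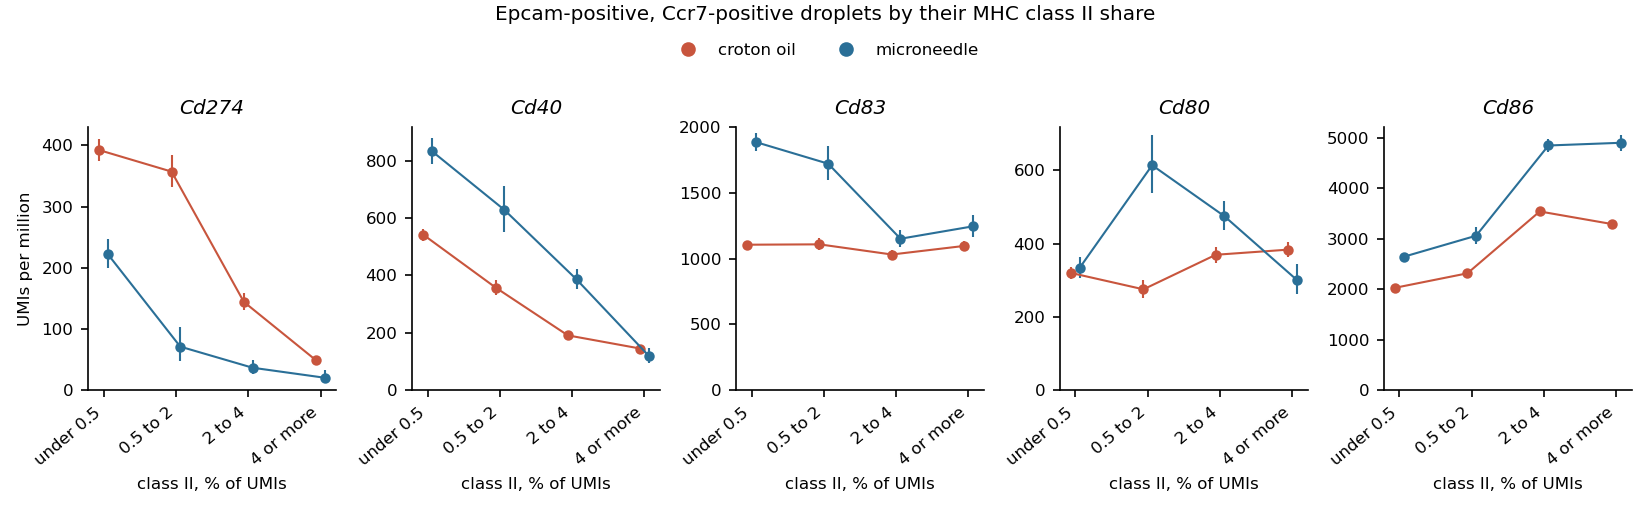
Level of Cd274, Cd40, Cd83, Cd80 and Cd86 (CPM) in Epcam-positive, Ccr7-positive droplets by the share of UMIs from the class II genes (under 0.5%, 0.5 to 2%, 2 to 4%, at least 4%) in the croton oil and microneedle libraries, with exact Poisson 95% intervals. Cd274 goes from 392 to 48.8 CPM and from 222 to 20.4 CPM as the class II share increases, whereas Cd86 is higher at 4% or more than under 0.5%.

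Within the Ccr7-negative LCs, the CD28 ligands varied with the class II share too. At 2 to 4, 4 to 6 and at least 6% class II UMIs, Cd80 stood at 69.0, 45.0 and 23.8 CPM untreated, 363, 293 and 212 CPM after croton oil, and 299.9, 253 and 190 CPM after microneedles. Each treated bin lay above all 3 untreated bins, so the treatment difference in Cd80 was present at every class II share. Cd86 and Cd83 were likewise lower at higher class II shares in every library, for example Cd86 at 5325, 4308 and 3082 CPM untreated. Cells with at least 3 UMIs of the proliferation genes Mki67 and Top2a had more Cd80 than cells with none, at 67.7 against 45.7 CPM untreated, 356 against 271.5 CPM after croton oil and 335 against 231 CPM after microneedles.

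The presence of Cd207 made little difference to Cd80 in the croton oil LCs, at 275 CPM in the 1404 cells with no Cd207 UMI and 298 CPM in the 4825 with at least 1. Cd274 was lower in the cells without Cd207 there, at 7.96 against 19.0 CPM. Untreated LCs allow no such comparison, since 36 of the 37 Cd274 UMIs in the 239 cells without Cd207 lay in 1 Ccr7-positive cell.

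**Figure D4:**
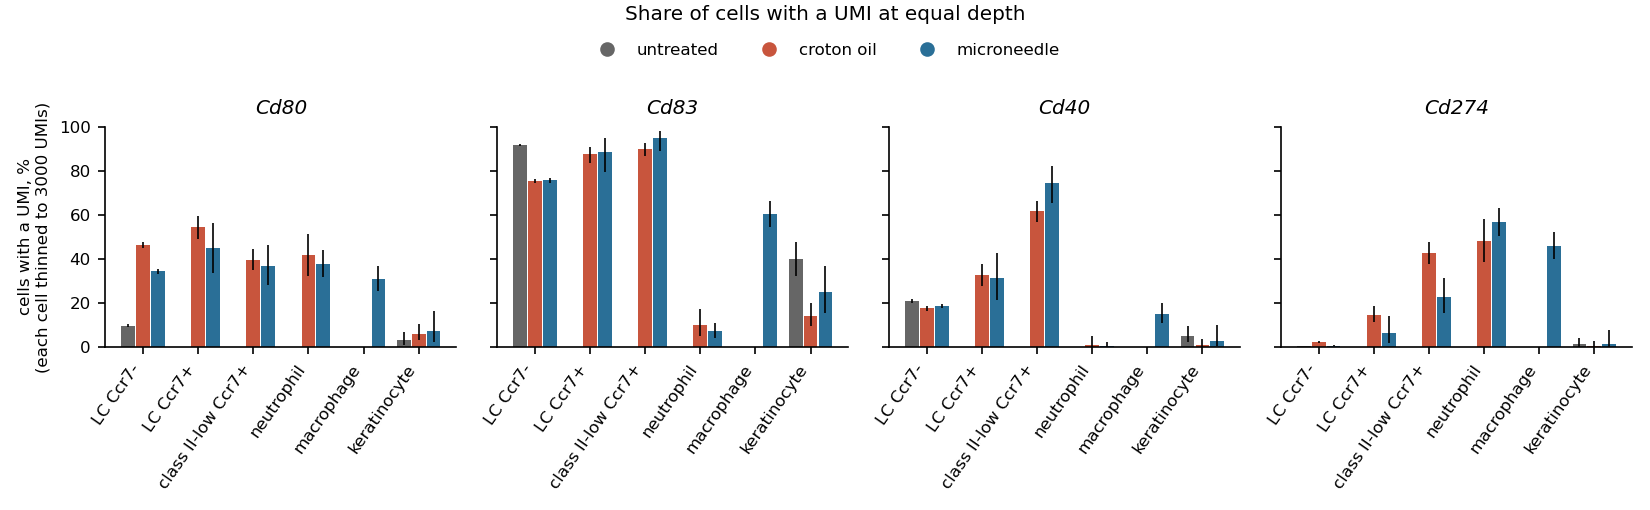
Share of cells with at least 1 UMI of Cd80, Cd83, Cd40 and Cd274 after every cell was thinned to 3000 UMIs, by cell class and library, with exact binomial 95% intervals. Cd80 goes from 9.73% of untreated LCs to 46.8% and 34.5% of treated ones, and Cd274 is found in 42.7% and 22.8% of class II-low Ccr7-positive droplets.

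Neutrophils and macrophages, present almost only in the treated libraries, carried more Cd274 than the LCs of their libraries. Cd274 stood at 555 CPM (502 to 613) in 179 croton oil neutrophils and 582 CPM (547 to 619) in 377 microneedle ones, with intervals that overlapped. Pdcd1lg2 stood at 190 CPM (159 to 225) and 98.7 CPM (84.5 to 115), far above any class of treated Epcam-positive cells. Cd80 reached 339 and 239 CPM. Cd86 was low at 149 and 191 CPM, as were Cd83 at 42.5 and 51.6 CPM and Cd40 with 5 and 4 UMIs. Icosl stood at 21.3 and 13.8 CPM, from 15 and 24 UMIs, against 1.06 and 1.05 CPM in the LCs. Neutrophils thus combined both PD-1 ligands with Cd80 and some Icosl, and little Cd40 or Cd83.

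The 325 microneedle macrophages had Cd274 at 336 CPM, Cd83 at 563 CPM, Cd86 at 591 CPM, Cd80 at 186 CPM and Cd40 at 69.3 CPM. Tnfsf9 had its highest level of the classes with at least 50 cells there, 25.4 CPM (19.7 to 32.2). Pdcd1lg2 was at 11.4 CPM and Icosl at 4.17 CPM. The croton oil library held 18 macrophages and the untreated library 3, too few to describe.

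Keratinocytes served as a measure of RNA from other cells. Their gate did not leave out droplets that also held an LC, and the part of such droplets was not tested. The keratinocytes' median class II share was 0.696, 0.0363 and 0.144% in the untreated, croton oil and microneedle library. At 3000 UMIs, 45.4% of untreated keratinocytes had 0 Cd86 UMIs and 38.7% had 3 or more. Their Cd86 stood at 19.1, 10.6 and 13.7% of the LC level in the untreated, croton oil and microneedle library, beside 15.7, 7.41 and 19.4% for Cd207 and 16.0, 8.31 and 13.6% for Cd74, which mark LCs. Cd83 (19.2, 11.7 and 18.7%) and Cd40 (14.4, 13.9 and 21.5%) were close to those shares, and Cd80 was at 7.01, 10.8 and 5.19%. Cd274 did not follow the LC markers: its keratinocyte level was 211, 36.4 and 121% of the LC level, from 23, 68 and 16 UMIs. Icosl, at 54.7, 335 and 88.6%, did not either, from 5, 39 and 3 UMIs. For the neutrophils' Cd274, the neutrophil gene S100a8 is set beside it. Droplets with S100a8 and S100a9 at 0.5% of UMIs or more had been left out of the LCs. The S100a8 share is thus partly set by that filter and is not a matched measure. In croton oil LCs without Ccr7, S100a8 was at 0.0465% of the neutrophil level and Cd274 at 1.94%, and in microneedle ones at 0.0254% and 0.618%. In the Ccr7-positive LCs the values were 0.0495% against 16.9%, and 0.0274% against 5.24%. The part of neutrophil RNA in these Cd274 levels was not tested.

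Per cell, treated LCs less often had exactly 2 of the ligand genes, and more often 3 or only 1. At 3000 UMIs, 64.9% of untreated LCs had exactly 2 of the 8 genes, against 39.5% after croton oil and 47.6% after microneedles. Exactly 3 were found in 25.6, 38.7 and 32.6%, and exactly 1 in 6.2, 11.8 and 13.4%. The mean was 2.24, 2.47 and 2.31 per LC. It was 2.91 and 2.69 in Ccr7-positive LCs of the croton oil and microneedle libraries, 3.34 and 3.3 in class II-low Ccr7-positive droplets, and 1.59 and 1.54 in neutrophils.

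Cd80 and Cd86 were found together as often as their separate shares gave, with a ratio of observed to product of 1.0 in the LCs of each library, since almost every LC had Cd86. Cd80 and Cd83 gave 1.03 to 1.06. Cd274 and Cd40 were detected together in 42 of 5839 croton oil Ccr7-negative LCs, 1.68 times the product, in 22 of 360 Ccr7-positive LCs, 1.27 times, and in 100 of 412 class II-low droplets, 0.92 times. In croton oil neutrophils, Cd274 and Pdcd1lg2 came together in 21 of 108 cells, 1.32 times the product. Such ratios in thinned counts also carry what differences remain between cells of a class.

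**Figure D5:**
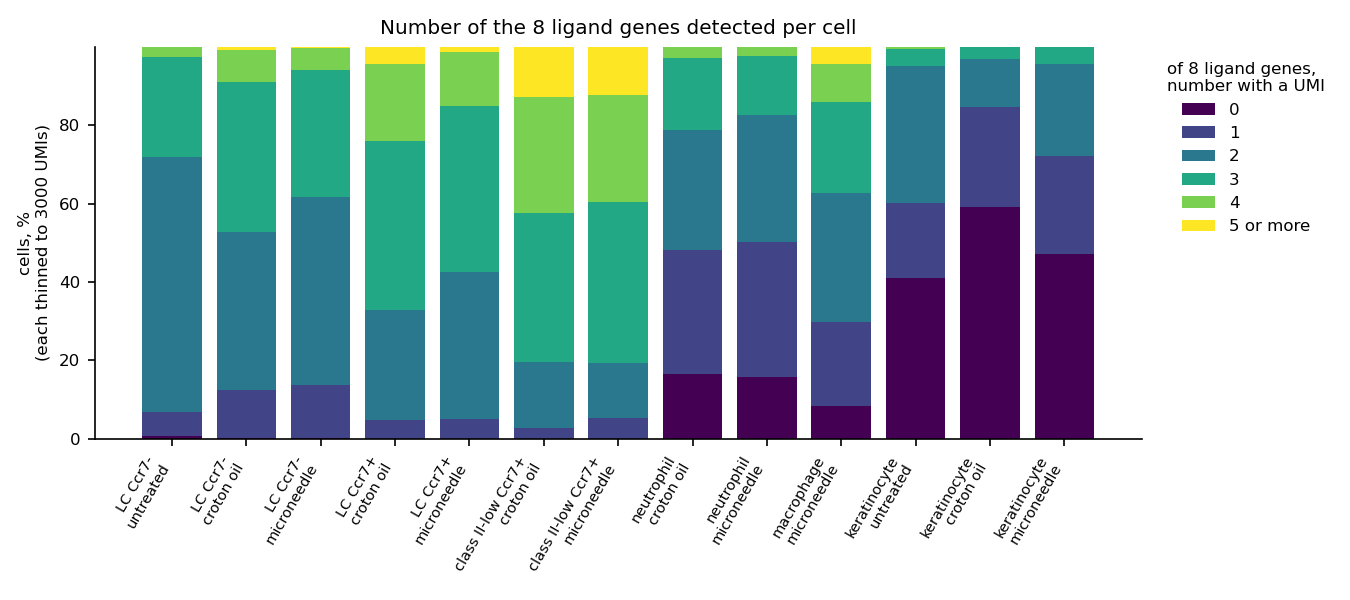
Stacked shares of cells with 0, 1, 2, 3, 4 and 5 or more of the 8 genes detected after thinning to 3000 UMIs, by cell class and library. LCs with exactly 2 genes go from 64.9% untreated to 39.5% after croton oil and 47.6% after microneedles, and class II-low Ccr7-positive droplets with 5 or more make up 12.9% and 12.3%.

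Other genes of these pathways were read from fixed lists, to be set beside the 5.62% of all features called higher and 5.62% lower after croton oil, and the 3.87% and 1.69% after microneedles. Of 26 other ligands and adhesion partners, 6 were compared between croton oil and untreated LCs and 1 was called lower, Tnfsf15, a ligand of the TNF family, at 7.48 against 50.4 CPM. After microneedles 1 of 7 was called higher, Pvr, a ligand of TIGIT and CD226, at 265 against 103 CPM, and Tnfsf15 lower at 18.6 CPM. Of 16 receptors, which T cells mostly carry, 2 of 4 were called higher after croton oil. These were Tnfrsf9, the receptor of Tnfsf9, at 8.01 CPM untreated, 536 CPM after croton oil and 73.8 CPM after microneedles, and Icos, the receptor of Icosl, at 0.151, 33.9 and 13.5 CPM. Only Tnfrsf9 was called after microneedles, 1 of 3. Tnfrsf9 and Icos lay under 20 CPM in untreated LCs, so they entered these counts only through treated LCs, where they were high.

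Icos is a T cell gene, and in croton oil LCs the T cell genes Cd3g and Trdc stood at 0.391 and 0.322 CPM, against 3511 and 2877 CPM in the 129 croton oil T cells, where Icos was at 36.0 CPM. Droplets with 5 or more T cell receptor and CD3 UMIs had been left out of the LCs, and the source of Icos was not tested. Of 17 genes of CD40 and NF-kB signalling, 16 were compared. Traf1, an adaptor of TNF receptors, was called higher after croton oil, at 50.5 against 4.47 CPM, and Birc3 lower, at 342 against 731 CPM; after microneedles Traf1, at 23.8 CPM, and the survival gene Bcl2l1, at 249 against 120 CPM, were called higher. The median of this list was 0.26 after croton oil, beside −0.04 for all features, and 0.03 after microneedles, beside 0.02. None of 9 interferon pathway genes was called after croton oil and 1 after microneedles, Irf9, at 30.1 against 12.5 CPM. Among 8 genes that act on the stability of these proteins, Marchf1, the ubiquitin ligase that removes Cd86 and class II from the surface, was called lower after croton oil, at 112 against 350 CPM.

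In the Ccr7 split, 15 of 17 CD40 and NF-kB genes lay above 0 in both treated libraries, with medians of 0.64 and 0.53 beside −0.08 and −0.04 for all features, and 2 were called higher in each. Traf1 stood at 271 against 32.9 CPM after croton oil and 182 against 20.8 CPM after microneedles, and Traf5 at 70.5 against 14.4 CPM and 40.5 against 13.7 CPM. Icam1, the adhesion ligand of LFA-1, stood at 123 against 20.3 CPM and 145 against 20.7 CPM, the 1 gene called among the other ligands in each library. Of 9 interferon pathway genes, 2 were called higher after croton oil and 1 after microneedles, and 0 lower, with medians of 0.35 and 0.10. Jak2, a kinase of cytokine receptors, was called in both, at 430 against 189 CPM and 531 against 211 CPM. Of the receptors, 1 of 3 was called higher in each library, Tnfrsf9, at 1319 against 473 CPM and 426 against 67.2 CPM. Of the migratory dendritic cell genes, a list that includes Ccr7 itself and so partly repeats the split, 13 of 16 and 12 of 17 were called higher, beside 3.25% and 2.90% of all features.

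In the class II-low droplets, 11 of 17 CD40 and NF-kB genes were called higher in each treated library, beside 9.71% of all features after croton oil and 11.1% after microneedles. Bcl2l1 was called lower after microneedles, at 91.6 against 249 CPM. The medians of the list were 1.06 and 1.34, beside −0.14 and −0.15 for all features. Traf1 stood at 564 and 522 CPM. Cd200, whose receptor restrains myeloid cells, stood at 119 CPM after croton oil and 59.7 CPM after microneedles, against 0.223 and 0.140 CPM in Ccr7-negative LCs. Tnfrsf9 stood at 2143 and 1239 CPM. Marchf1 stood at 11.4 and 9.95 CPM, against 116 and 190 CPM in Ccr7-negative LCs. Cd24a, an adhesion protein, was at 36.5 and 30.4 CPM, against 311 and 381 CPM. Calls in these lists went both ways. Of the other ligands, 2 of 6 were higher and 2 lower after croton oil, and 4 of 9 higher and 3 lower after microneedles. Of the receptors, 1 of 3 was higher and 1 lower, and 1 of 4 higher and 2 lower. Over all features, 13.5% and 14.8% were called lower.

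Across 11 points, each a cell class in a library with at least 50 cells, the features most like each gene were found. The measure was Pearson r of log2(CPM + 5) over 10050 features. The points were Ccr7-negative and Ccr7-positive LCs, macrophages, neutrophils and keratinocytes. Class II-low droplets and T cells were not among them, so r does not cover those classes. Points of 1 library share its depth and free RNA, and r is given as a description. Cd80 was most like Basp1 (0.98), Csf2rb (0.97) and Smox (0.97), Cd86 like Dcaf8, Bbs9 and Uty (0.99 each), and Cd83 like Ccdc88a (0.99), Tmem168 (0.98) and Nfya (0.97). Cd274 was most like Slc7a11 (0.98), Sema4d (0.98) and Ptafr (0.97), Cd40 like Gm20708, St3gal3 and Cyria (0.97 each), and Tnfsf9 like Acp2 (0.97) and Mfsd1 (0.96). Pdcd1lg2 was most like Mcemp1 and St3gal5 (0.99 each), and Icosl like Tarm1 and C1rl (0.98 each). Among the 8 genes themselves, Icosl and Pdcd1lg2 gave 0.96, Cd86 and Cd83 0.93, Cd83 and Cd40 0.93, Cd274 and Pdcd1lg2 0.88, Cd80 and Cd86 0.18, and Cd86 and Cd274 −0.60.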

How the data were processed

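The deposited values were counts of UMIs per gene and cell from Chromium 3' libraries, which the authors made against GRCm39, per the submitters' processing notes; per the file headers, the software was Cell Ranger 8.0.0. They were whole numbers and not normalized. A 3' assay with droplets also captures free RNA.

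Cells with at least 500 genes and at most 10% mitochondrial UMIs were kept: 9827 untreated, 8158 croton oil and 6855 microneedle. Of those in the LC gate, 60, 179 and 128 with markers of keratinocytes (keratins), neutrophils (S100a8 and S100a9), T cells or macrophages were left out as mixed. Scrublet (scanpy 1.11.5) marked 2, 0 and 0 cells by itself, under 0.5%, and served only as an alternative. Neutrophils had S100 genes at 2% of UMIs or more and keratinocytes keratins at 1% or more; T cells and macrophages had at least 5 marker UMIs and fewer than 2 of Epcam. These limits and the class II-low class were set after the data were seen. The 8 genes and the lists were chosen with earlier results of these data known.

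UMIs were summed per class and library as CPM with exact Poisson 95% intervals; shares carry exact Clopper-Pearson 95% intervals after thinning to 3000 UMIs, which left out 101, 30 and 58 LCs. Intervals cover counting error only. Differences are log2((CPM + 5)/(CPM + 5)), which understates low genes. Named beside the 8 genes are up to 4 genes per list with the largest difference and the 3 features most like each gene; only some are printed. The summing was tested on simulated data. Alternative scalings used edgeR 4.0.16 and DESeq2 1.42.0 in R 4.3.3, with Python 3.11.15, numpy 2.4.6, scipy 1.17.1 and pandas 2.3.3 otherwise.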

Additional observations from a re-analysis of the deposited data

Results flagged for a closer look

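Tnfsf9 differed in sign between the treated libraries in the Ccr7 split, but neither sign was settled by the counts. The log2 intervals both included 0, at −0.64 to 0.014 after croton oil and −0.34 to 0.75 after microneedles. Its log2 difference, Ccr7-positive against Ccr7-negative LCs, was −0.32 after croton oil, from 35 UMIs at 5.43 CPM and 648 UMIs at 8.04 CPM. After microneedles it was 0.17, from 9 UMIs at 4.73 CPM and 368 UMIs at 3.68 CPM. Every level was under 20 CPM, the intervals of both Ccr7-positive classes were wide (3.78 to 7.55 CPM and 2.17 to 8.99 CPM), and the difference between the libraries was not tested.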

How the results depend on the processing

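In the treatment comparisons and the Ccr7 split, no value of the 8 genes that had reached 2-fold changed sign under the alternatives run; the comparisons of the class II-low droplets were not recomputed. Leaving aside the widened gate, 180 log2 differences of the 8 genes moved by less than their counting error and 128 by more, and 114 shares of positive cells stayed within their interval and 54 did not. Cd80 against untreated ranged from 2.30 to 2.57 after croton oil and from 2.21 to 2.40 after microneedles, and Cd83 from −1.20 to −1.01 and from −0.95 to −0.88. In the Ccr7 split Cd274 ranged from 1.80 to 3.02 after croton oil and from 1.59 to 2.78 after microneedles, and Cd40 from 1.04 to 1.46 after croton oil; Cd40 after microneedles was 0.65 with class II genes at 4% or more, under 2-fold. Between croton oil and microneedle LCs, Cd40 was −0.10 and kept that sign in 12 of 14 alternatives. It was 0.05 with DESeq2 size factors, and 0.13 with the gate widened by the class II-low Ccr7-positive droplets. With the gate widened by the class II-low Ccr7-positive droplets, chosen after seeing the data, Cd40 against untreated was 0.21 and 0.07 in place of −0.25 and −0.14, and the Ccr7 split gave Cd274 at 3.97 and 3.79 and Cd40 at 2.19 and 2.72.

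Of 170 counts of features past 2-fold under other settings, 145 stayed within 1.5 times the main count; these did not, and the cause was not tested unless the alternative itself left fewer features or cells. Croton oil against microneedle had 108 higher and 71 lower: 43 lower with DESeq2 size factors, 107 lower with a pseudocount of 1 CPM, and 71 higher and 46 lower at 50 CPM. At 50 CPM there were also 234 in place of 384 lower after croton oil and 65 in place of 113 lower after microneedles. The Ccr7 split after croton oil had 212 higher and 44 lower: 81 lower with a pseudocount of 1 CPM, 74 with class II at 1% or more, 77 and 20 with Epcam at 1 and 4 UMIs, 222 with Ccr7 at 2 UMIs, 25 with mixed droplets kept and 100 with thinned cells. After microneedles it had 194 higher and 13 lower: 20 lower without mitochondrial and ribosomal genes in the total, 26 with a pseudocount of 1 CPM, 23 at 5 CPM and 23 with no minimum, 116 higher and 3 lower at 50 CPM, 72 lower with class II at 4% or more, 407 higher and 270 lower with Ccr7 at 2 UMIs (34 cells), 7 lower with Scrublet, and 303 higher and 230 lower with thinned cells. The widened gate gave 466 higher and 427 lower after croton oil and 501 higher and 295 lower after microneedles.

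Scaling moved every feature of croton oil against untreated by 0.10 (edgeR TMM) and 0.143 (DESeq2) on the log2 scale, and of croton oil against microneedle by 0.134 and 0.163. The share of calls that were higher went from 50% (384 higher, 384 lower) to 62.2% (500, 304) and 66.5% (547, 275), and from 60.3% to 74.1% (140, 49) and 77.7% (150, 43). No paired analysis was possible because each group was 1 library, and for the same reason no library could be left out. Icosl, Pdcd1lg2 and Tnfsf9 lay under 20 CPM over all LCs of each library, and whether depth limits their detection per cell was not tested.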

Other observations

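Epcam-positive droplets with under 2% class II UMIs and no Ccr7 UMI were in no comparison: 53 in the untreated, 173 in the croton oil and 62 in the microneedle library, with a median class II share of 1.44, 1.40 and 1.22%. Their make-up differed between libraries, so their levels are given without a comparison. The untreated ones were led by the cornified-layer genes Flg2, Crct1, Lor and Asprv1, with keratinocyte markers summing to 2831 CPM, against 167 and 206 CPM in the croton oil and microneedle ones. The treated ones were led by pigment cell genes such as Dct, Tyrp1 and Pmel, with melanocyte markers at 397 and 707 CPM, against 16.3 CPM untreated. Cd80 stood at 24.4 CPM (11.2 to 46.4) in the untreated, 368 CPM (342 to 395) in the croton oil and 175 CPM (147 to 208) in the microneedle droplets. Cd86, the partner ligand of CD28, stood at 3770, 3447 and 3998 CPM. Cd274 had 1 UMI in the untreated library and stood at 40.02 CPM (31.8 to 49.7) and 34.3 CPM (22.4 to 50.2) in the treated ones. The part of these other cells in the levels was not tested.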
